A study of Homo sapiens with 7 samples.

Results

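The clustered protocadherins are 53 of the 20163 protein-coding genes used here, and they stand in a row on the long arm of human chromosome 5. They were chosen by symbol, as the protein-coding genes on chromosome 5 named PCDHA, PCDHB or PCDHG followed by a number, or by A, B or C and a number. The row holds 13 alpha variable members (PCDHA1 to PCDHA13), 2 alpha C-type members (PCDHAC1 and PCDHAC2) and 16 beta members. It goes on with 12 gamma A members, 7 gamma B members and 3 gamma C-type members (PCDHGC3, PCDHGC4 and PCDHGC5). All are read from the plus strand, and from the transcription start site (TSS) of PCDHA1 to the last gamma gene end, that of PCDHGC3, they span 727 kb, at chr5:140165725-140892544 of hg19. The study sheared chromatin of HCT116 cells, a human colorectal carcinoma line, with the PIXUL plate sonicator in wells of about 200000 cells for 6 min in 100 µl. Chromatin was then immunoprecipitated and sequenced with 1 library from a single well for each antibody. The antibodies were against H3K4me1, H3K4me3, H3K9Ac, H3K27me3, H3K36me3 and CTCF, with no treatment and no second cell type, and the H3K27Ac library was not analysed here. With 1 library per mark there is no replicate spread, so the values below are descriptions without a test.

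Clustered protocadherins are cell adhesion proteins best known from neurons, where each cell uses its own small choice of them and like pairs with like between cells. Each alpha and gamma variable exon has its own promoter and is spliced to constant exons that its group shares, whereas the beta genes mostly lack such shared exons. The DNA-binding protein CTCF and the cohesin ring are known to join the promoters that are in use to distant enhancers, and the direction of a CTCF motif matters for such loops. In many colorectal tumours promoters of the cluster are known to carry DNA methylation. H3K4me3 and H3K9Ac are marks of active promoters, H3K4me1 of enhancers and promoter flanks, H3K36me3 of transcribed gene bodies and H3K27me3 of Polycomb repression.

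The promoters of the members carry short shared stretches of sequence, shown first because 26 of the 30 CTCF peaks listed at the members hold them. The stretches lie close to the transcription start, which 28 of the 30 peaks hold as well. They also stand at 17 members with no listed CTCF peak, so they do not set the members with a peak apart. The genome sequence of hg19 was read from 300 bases before to 100 bases after each TSS and aligned on the letters CGCT within 3 sets, the alpha variable, the beta, and the gamma A and B members. Lines give 22 bases from 5′ to 3′ on the strand of the gene, with CGCT in capitals.

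PCDHA2 at chr5:140174370-140174391: gccacatgatgtCGCTgtccac
PCDHA8 at chr5:140220719-140220740: gccacatgatgtCGCTgtctac
PCDHA11 at chr5:140248472-140248493: ggcgcaaggtgtCGCTctttac
PCDHB7 at chr5:140552151-140552172: aacgcaaggtggCGCTgctggc
PCDHB9 at chr5:140566652-140566673: gccacaaggtggCGCTgcagac
PCDHB13 at chr5:140593441-140593462: gacgcgtggtggCGCTgcagga
PCDHGA8 at chr5:140772139-140772160: gactgtaagcgcCGCTgttcac
PCDHGA10 at chr5:140792502-140792523: gactctgagcgcCGCTgttcac
PCDHGB2 at chr5:140739492-140739513: acctctgagcgtCGCTgttggt

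At least 15 of the 22 bases were those of their set's consensus in 12 of the 13 alpha variable, 14 of the 16 beta and 18 of the 19 gamma A and B members. This stretch is called the promoter box below. Its letters CGCT began at a median position of −51.5 in the alpha variable members, −61.5 in the beta members and −53 in the gamma A and B members, where positions count bases from the TSS and negative ones lie before it. PCDHA9, PCDHB1, PCDHB6 and PCDHGB7 had no such stretch, and no box was sought in the 5 C-type members or in genes outside the row. Each consensus was built from the best site of the members themselves, and every site holds CGCT by choice. High counts are thus partly built in, and they are descriptions only.

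Inside the box the 3 sets differed in the letters before CGCT. The run TGATGTCGCT, searched from 400 bases before to 100 after the TSS on the strand of the gene, was found in 9 of 13 alpha variable members and in no other member. Among all protein-coding genes, the members included, 13 (0.0645%) had it there. The run GGTGGCGCTG was found in 13 of 16 beta members and, these included, in 76 of all genes (0.377%). GCGCCGCTGT was found in 10 of the 19 gamma A and B members and, these included, in 35 of all genes (0.174%). The shorter CGCTG, which overlaps with the latter runs, lay between 300 bases before and 50 after the TSS in 43 of the 53 members (81.1%), against 40.9% of all genes. It was present in all 19 gamma A and B members, 13 of 16 beta, 7 of 13 alpha variable and 4 of 5 C-type members. These runs were picked from the members themselves, so their counts among the members are descriptions.

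A second set of sequences is shown because it carries the direction of the CTCF motif. A matrix of 20 positions was built from CTCF peaks on the other chromosomes around the CTCF core sequence, and searched on both strands of the peaks and windows. The limit for a site was a score of 7.04. The sites of PCDHA7 and PCDHA8 differ only in starting the core with CCAC and CCGC, and scored 21.4 and 9.49. A small change in the core thus lowered the score strongly, so a peak without a motif may still hold a more divergent site. Lines give each site on the strand of its motif, 5′ to 3′, with the 12 bases of the core in capitals and the strand of the chromosome in brackets.

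PCDHA4 at chr5:140187225-140187244 (+): gtttCCACTAGAGGGCgcct
PCDHA7 at chr5:140214421-140214440 (+): gtttCCACTAGAGGGCgcgt
PCDHA8 at chr5:140221359-140221378 (+): gtttCCGCTAGAGGGCgcgt
PCDHA11 at chr5:140249141-140249160 (+): ttttCCACTAGAGGGAgctt
PCDHA13 at chr5:140262306-140262325 (+): atttCCACTAGATGGCgcat
PCDHB9 at chr5:140566649-140566668 (+): gaagCCACAAGGTGGCgctg
before PCDHB1 at chr5:140419944-140419963 (−): ttaaCCAGCAGAGGGCgagt
before PCDHB1 at chr5:140420953-140420972 (−): tctgCCACCAGGTGGCaggt
end of the gamma group at chr5:140892066-140892085 (−): atggCCACTAGGGGGCgcac

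The members were then read for peaks within 1 kb of the TSS, a window that holds the start of the variable first exon. Each peak of the deposited lists carries a fold enrichment, a linear ratio over the background, and a q-value. A peak is called listed when it stands in a deposited list at all. It is called past the limits when it also meets limits taken from the Methods. For H3K4me1 and H3K27me3 these are a fold enrichment over 2 with q under 1e-03. For H3K4me3, H3K9Ac and H3K36me3 they are a fold enrichment over 5 with q under 1e-10. The Methods name no limits for CTCF, and those of H3K4me3 were used for it here. The lists give no read counts, so the depth of the libraries is unknown, and a window without a peak shows only that none was called.

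Peaks of the active histone marks were listed at PCDHAC1, PCDHAC2 and PCDHGA10, and at none of the other members. H3K4me3 was past the limits at these 3 of 53 members, or 5.66% (95% Wilson interval 1.94 to 15.4%), whereas 59.1% of all protein-coding genes had such a peak and 61.6% had one listed. H3K4me1 was past the limits at the same 3 members, against 49.1% of all genes past the limits and 61.2% listed. H3K9Ac was past the limits at 2 members and listed at 3, against 58.5% and 64.3% of all genes. H3K4me3 or H3K9Ac past the limits was found at 3 members and at 60.2% of all genes. The intervals cover counting error only and treat the members as independent, which neighbours in a cluster may not be. The H3K4me3 folds at the 3 members, given below, were all under the 18.0 that is the median of the whole H3K4me3 list.

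The repressive and gene-body marks were not found at the starts either. H3K27me3 was listed at 0 of 53 members (Wilson interval up to 6.76%), beside 9.6% of all genes, and 1.22% of all genes had it past the limits. H3K36me3 was listed at 0 of 53, beside 6.49% of all genes, and 0.298% of all genes had it past the limits. The listed share of H3K27me3 in all genes lies above the interval, and the other shares lie within it. For those, 53 genes are too few to show a difference. Neither case is a test, since neighbouring members in a single library are not replicates. Few peaks of either mark passed the limits anywhere, 1552 of 55270 for H3K27me3 and 90 of 40010 for H3K36me3.

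CTCF was the mark most often present. A CTCF peak was listed at 30 of 53 members, 56.6% (43.3 to 69.0%), against 29.5% of all genes. Past the limits it was found at 8 members, 15.1% (7.85 to 27.1%), against 13.6% of all genes, which is within the interval. A listed CTCF peak with no listed histone peak was found at 28 members, 52.8% (39.7 to 65.6%), a state of 1.31% of all genes. Among the genes with a listed CTCF peak, 4.44% had no histone peak. A peak of any of the 6 marks was past the limits at 9 members, against 66.1% of all genes, and listed at 31 members, against 76.1%. The 22 members with no listed peak of any mark were 4 alpha variable, 6 beta, 5 gamma A, 4 gamma B and 3 gamma C-type members.

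**Figure D1:**
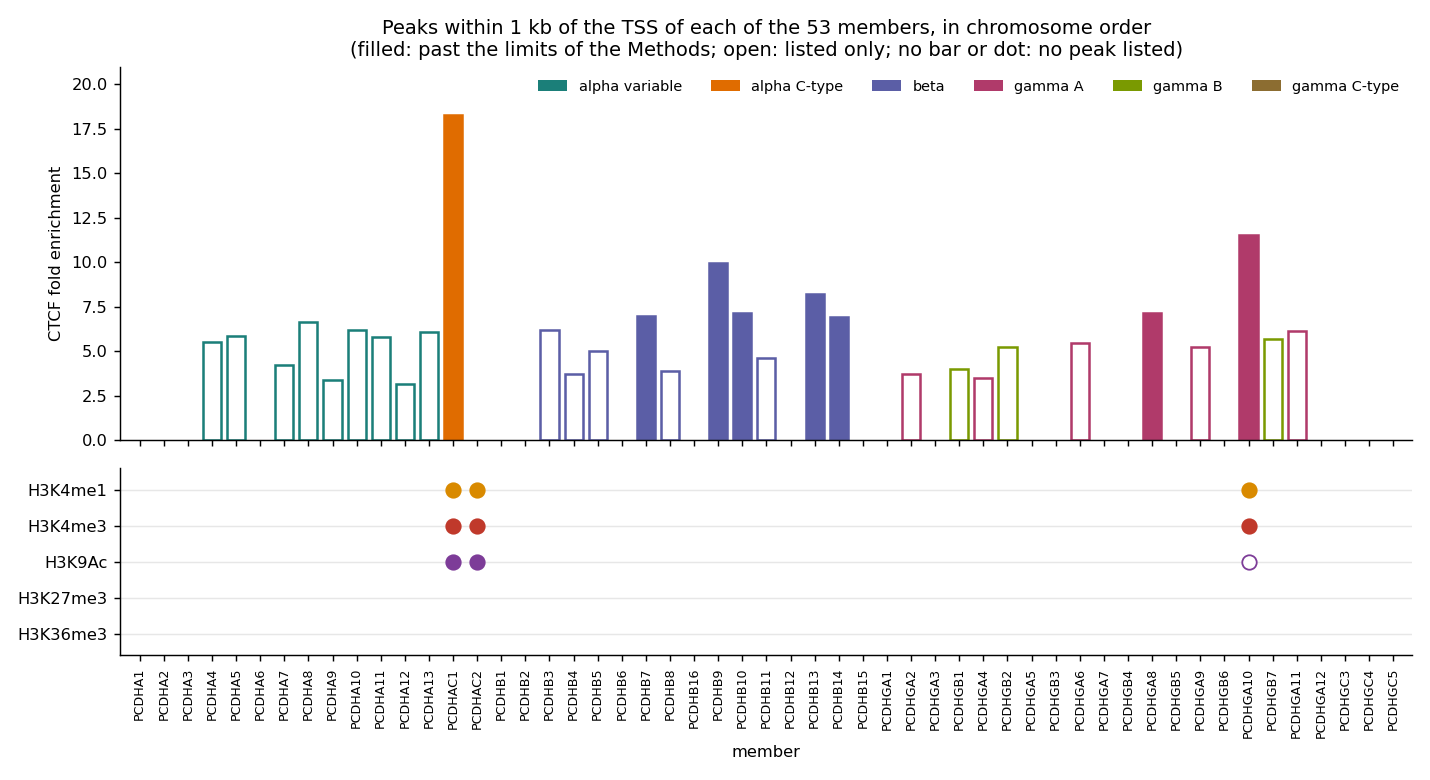
CTCF fold enrichment (bars, linear ratio) and presence of the 5 histone marks (dots) within 1 kb of the TSS of the 53 members in chromosome order. Filled bars and dots are past the limits and open ones are listed only. CTCF bars stand at 30 members, while histone dots stand at PCDHAC1, PCDHAC2 and PCDHGA10.

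Among the alpha variable members, CTCF peaks were listed at 9 of 13, and 0 of these passed the limits. PCDHA1, PCDHA2, PCDHA3 and PCDHA6 had none. The fold enrichment ran from 3.19 at PCDHA12 to 6.66 at PCDHA8, with a median of 5.84. The other values were 3.41 at PCDHA9, 4.26 at PCDHA7, 5.55 at PCDHA4, 5.84 at PCDHA11, 5.88 at PCDHA5, 6.07 at PCDHA13 and 6.23 at PCDHA10. All 9 fell short on the q-value, and PCDHA10 and PCDHA8 came closest, with −log10 q-values of 9.73 and 9.53 against the 10 that the limit requires. The alpha variable members therefore count as CTCF members only with peaks that fail the limits.

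The alpha variable peaks were wide and lay over the first exon. Their median width was 1055 bp and their median centre 238 bp after the TSS, and 8 of 9 held the TSS. PCDHA13 was the exception, with a peak from 340 to 865 bp after the TSS. The CTCF motif was found in 8 of these 9 peaks, always on the strand of the gene, from 461.5 bases after the TSS at PCDHA7 to 626.5 at PCDHA12. Thus 7 of 9 peaks reached over the promoter box, and 8 of 9 over the exonic motif listed above.

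The motif and the listed peaks went together among the alpha variable members. A motif stood in the window of PCDHA4 through PCDHA13, 10 of 13 members, and all but PCDHA6 had a listed CTCF peak. PCDHA1, PCDHA2 and PCDHA3 had neither a motif nor a peak. At PCDHA10 the motif lay 610.5 bases after the TSS, beyond the end of a narrow peak of 587 bp. The 3 members without a motif did carry the promoter box, as the line of PCDHA2 shows.

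The alpha C-type members differed from the variable ones in their marks. PCDHAC1 had the CTCF peak with the highest fold enrichment in the cluster, 18.3, with a −log10 q-value of 49.4, at chr5:140305778-140306640. This peak stood at percentile 95.9 of the whole CTCF list by fold enrichment and held no CTCF motif by the matrix. Over the same start PCDHAC1 had H3K4me3 at a fold of 8.39, H3K9Ac at 7.18 and H3K4me1 at 5.30, all past the limits. The 4 peaks covered the TSS and reached 756 to 1140 bp into the first exon.

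PCDHAC2 had the same active marks but no CTCF peak. Its H3K4me3 peak reached a fold of 14.5 with a −log10 q-value of 35.8, the highest of the 3 members with this mark. H3K9Ac stood at 8.63 and H3K4me1 at 5.74. The H3K4me1 peak, 2010 bp wide, extended past both ends of the 1148 bp H3K4me3 peak. All 3 peaks also held the start of an antisense gene, ENSG00000279028, so a peak there cannot be assigned to either strand.

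Among the beta members, CTCF peaks were listed at 10 of 16 and past the limits at 5, and no histone peak was listed at any. PCDHB9 had the highest fold enrichment of the group, 9.96, with a −log10 q-value of 18.9. The other 4 past the limits were PCDHB13 at 8.23, PCDHB10 at 7.16, PCDHB7 at 7.01 and PCDHB14 at 6.94. These members stand close together in the latter part of the beta group. Listed peaks that did not pass were found at PCDHB3 (6.23), PCDHB5 (5.03), PCDHB11 (4.6), PCDHB8 (3.89) and PCDHB4 (3.73). PCDHB1, the first beta member, and PCDHB15, the last, had no peak, and neither did PCDHB2, PCDHB6, PCDHB12 and PCDHB16.

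The beta peaks were mostly narrow and sat on the promoter box. Their median width was 554.5 bp and the median centre lay at −41.75, with all 10 centres upstream of the TSS. PCDHB3 was an exception, with a peak of 1747 bp centred at −703. All 10 peaks held the box. The matrix found a CTCF motif at PCDHB9, centred at −76.5, and at no other beta member. There the motif and the box are the same bases, since the last letters of the site are the GGTGGCGCTG run. The lines of PCDHB7 and PCDHB13 show the box of members with a CTCF peak and no site by the first matrix. With a matrix relearnt from the 23285 CTCF peaks past the limits on other chromosomes, chosen after these values were seen, PCDHB10 and PCDHB11 also had a site on this strand. The beta members without a listed peak included 4 with the box.

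Among the gamma A members, CTCF peaks were listed at 7 of 12 and past the limits at 2, PCDHGA10 (11.6) and PCDHGA8 (7.14). The others were PCDHGA11 at 6.16, PCDHGA6 at 5.48, PCDHGA9 at 5.25, PCDHGA2 at 3.72 and PCDHGA4 at 3.51. PCDHGA1, PCDHGA3, PCDHGA5, PCDHGA7 and PCDHGA12 had none. Among the gamma B members CTCF was listed at 3 of 7, PCDHGB7 (5.69), PCDHGB2 (5.27) and PCDHGB1 (4.02), and 0 passed. As in the beta group, the peaks were mostly narrow, with a median width of 517 bp in gamma A and 465 bp in gamma B. The widest, at PCDHGA10, was 1093 bp. The median centres of the 2 groups lay at −61 and −121. The promoter box stood inside all 7 gamma A peaks and 2 of the 3 gamma B peaks, and none of the 10 held a CTCF motif by either matrix. More divergent CTCF sites in these peaks are not excluded. The box also stood at 5 gamma A and 4 gamma B members without a listed CTCF peak.

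PCDHGA10 was the variable member with active marks. Its H3K4me3 peak, chr5:140792306-140793371, had a fold of 8.78 with a −log10 q-value of 16.6, near that of PCDHAC1. Its H3K9Ac peak had a fold of 6.06 but a −log10 q-value of 9.28, just under the limit of 10. H3K4me1 was found from 718 to 1092 bp after the TSS, inside the first exon, at a fold of 3.95. The CTCF peak ran from −769 to 323 relative to the TSS, so CTCF and H3K4me3 overlapped on the TSS. PCDHGB7, the next member downstream, had a CTCF peak but no histone peak.

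The 3 gamma C-type members, PCDHGC3, PCDHGC4 and PCDHGC5, had no peak of any mark in their windows. Of the 5 C-type members, then, the 2 of the alpha group carried H3K4me3 and H3K9Ac and the 3 of the gamma group did not. These counts are too small for a comparison of the groups.

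**Figure D2:**
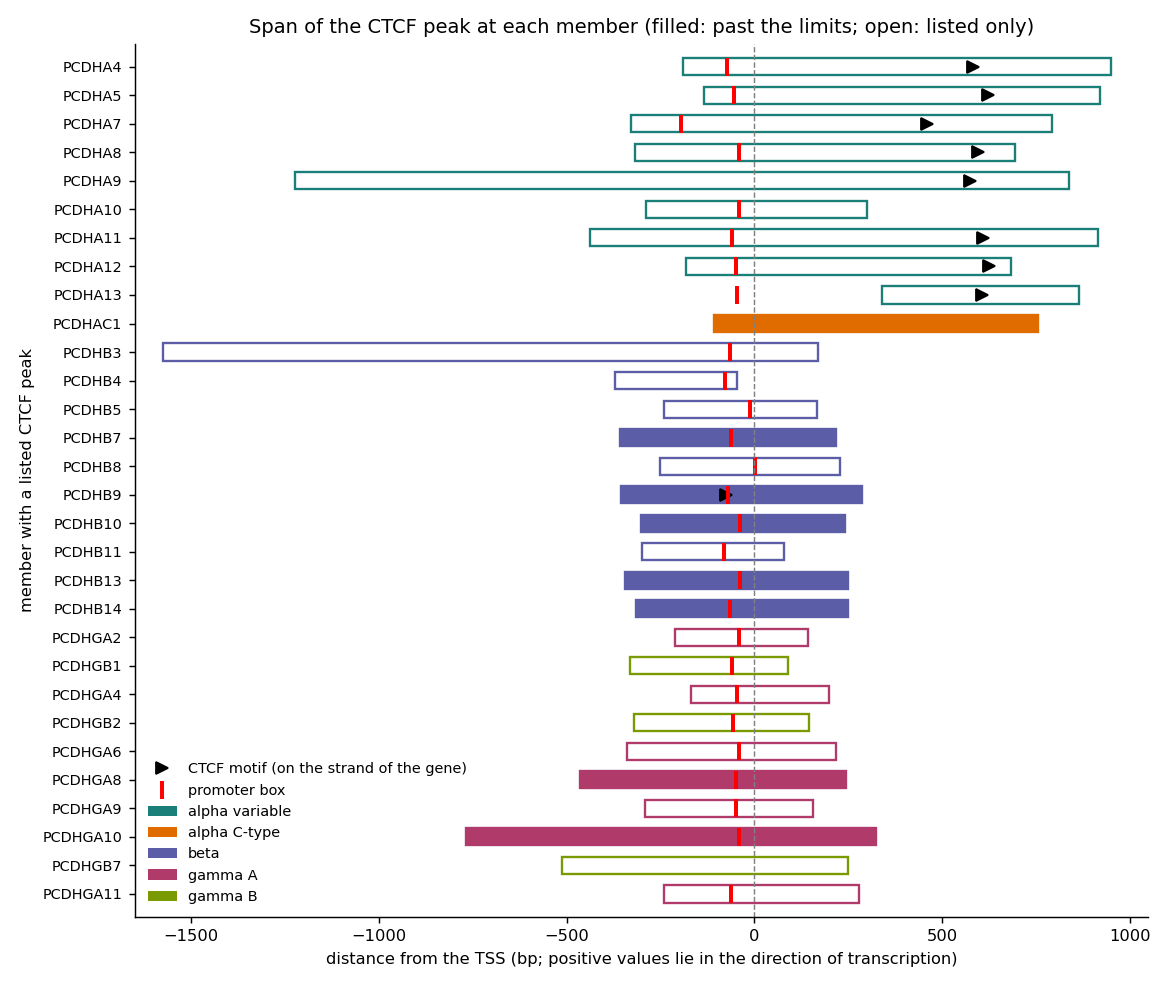
Span of the listed CTCF peak at each of the 30 members, in bp from the TSS, with filled bars past the limits and open bars listed only. Black triangles mark CTCF motifs and red ticks the promoter box. Of the 9 alpha variable peaks, 7 cover the box and 8 a motif inside the first exon. Most beta and gamma peaks are centred near the box, at medians of −41.75 (beta), −61 (gamma A) and −121 (gamma B). PCDHB3 is an exception, centred at −703.

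Over the cluster as a whole, 35 CTCF peaks were listed, of which 12 (34.3%, Wilson interval 20.8 to 50.8%) held a CTCF motif. On the other chromosomes 50.3% of the 42442 listed CTCF peaks did, a share just inside that interval. Past the limits it was 3 of 11 peaks (27.3%, 9.75 to 56.6%), against 64% on the other chromosomes, which lies above that interval. Those peaks of the other chromosomes also supplied the matrix, so their share may be raised. Among their intervals moved by 10000 bp the share was 5%, the level at which the score limit was set. In the windows of the members 11 of 53 had a motif, always on the strand of the gene, beside 17.5% of all genes on either strand and 9.63% on the strand of the gene.

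The direction of the motifs differed between member windows and the rest of the cluster. The 9 sites in peaks at the members were all on the plus strand, that of transcription. Of these, 8 lay in the alpha variable first exons, from 461.5 to 626.5 bases after the TSS, with similar bases. Since the members arose by duplication, these 8 may not be independent of each other. The 5 CTCF peaks outside the windows held 4 sites, of which 1 was on the plus strand and 3 on the minus strand. Of those on the minus strand, 2 lay in the peak between the alpha and beta groups and 1 at the end of the gamma group, each after the variable exons and pointing back towards them. These counts are a description of 13 sites.

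The peaks outside the member windows were few. A CTCF peak at chr5:140419641-140421429, 27708 bp past the last alpha exon and before PCDHB1, had a fold of 10.1 and held both minus-strand sites printed above. Under it stood listed peaks of H3K4me3 (4.82), H3K9Ac (4.46) and H3K4me1 (3.82), none past the limits, over the start of a long non-coding RNA gene, ENSG00000288892. The other end of the row had a CTCF peak at chr5:140891605-140892528 with a fold of 8.42, in the last exon shared by the gamma members. Smaller CTCF peaks were listed at chr5:140535094-140535580 (4.21), over the start of the pseudogene PCDHB17P, and at chr5:140652479-140652862 (4.51) after PCDHB15.

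The widest active region of the cluster lay away from any promoter of a member. An H3K4me1 peak of 4777 bp at chr5:140380197-140384973 had the highest H3K4me1 fold of the cluster, 7.22, at percentile 96.2 of its list. It lies in the intron between the last 2 exons that all alpha members share. H3K9Ac was listed over nearly the same span at 5.53 and H3K4me3 over part of it at 4.78, both under the limits, and no CTCF peak was listed there. The reach of this region to a promoter was not measured.

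TAF7, a subunit of the general transcription factor TFIID, is an unrelated gene between the beta and gamma groups. The peaks over its start had the highest H3K4me3 fold (17.8) and the highest H3K9Ac fold (12.8) of the cluster. Both peaks also held the starts of AC005618.1 and, on the other strand, ENSG00000288095, so they cannot be assigned to either strand. The CTCF peak with the second highest fold (16.1) lay inside the gene and ended 4 bp short of the TAF7 start. An H3K36me3 peak at 4.59, listed but not past the limits, ran over its body. The other H3K36me3 peak of the cluster, at 3.58, began inside the last exon of the gamma group and ran on over DIAPH1. No H3K36me3 peak was listed over any other part of the members' bodies. The single H3K27me3 peak, of 658 bp at 2.69 and under the limits, lay between PCDHA10 and PCDHA11.

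**Figure D3:**
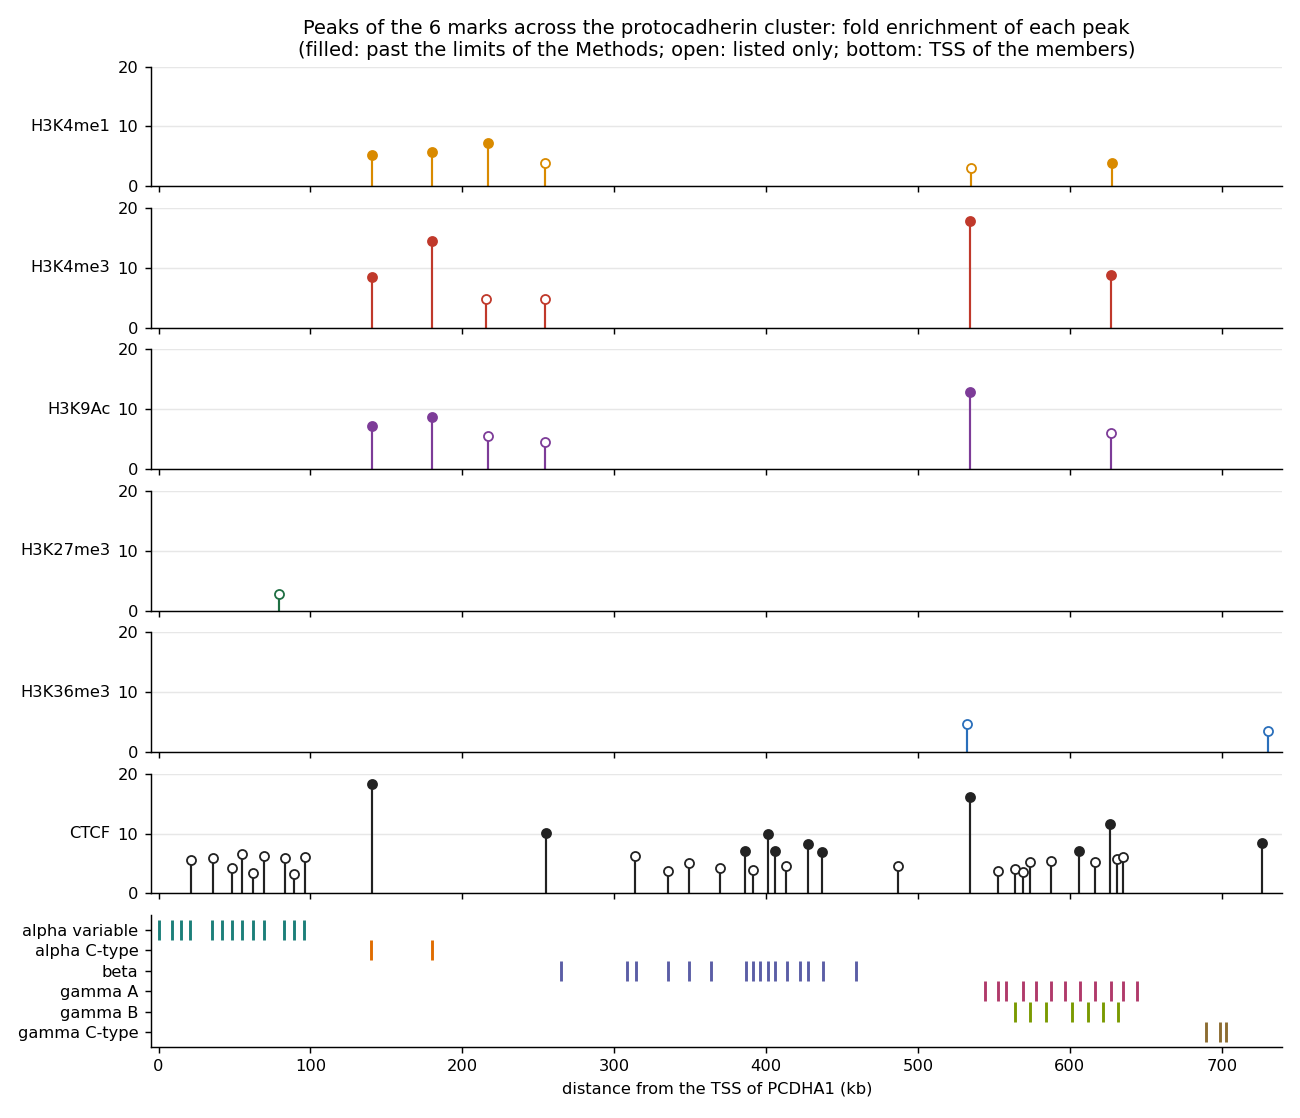
Fold enrichment (linear ratio) of each listed peak of the 6 marks along the cluster, in kb from the TSS of PCDHA1, with filled circles past the limits, and the TSS of the members by group at the bottom. Of the 35 CTCF peaks 30 lie in the windows of the members and 5 outside them, while the 21 histone peaks stand at a few places, with none over the 16 beta starts.

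Long stretches of the row had no listed histone peak at all. The longest, 275 kb, held all 16 beta starts and 12 listed CTCF peaks. A stretch of 138 kb that began before the row, at chr5:140106502-140244807, held the starts of PCDHA1 to PCDHA10, and one of 59978 bp those of PCDHA11 to PCDHA13. The H3K27me3 peak alone parted them. In the gamma group, 90.7 kb with 15 starts from PCDHGA1 to PCDHGB6 and 98.6 kb with 6 starts from PCDHGB7 to PCDHGC5 lay on either side of PCDHGA10.

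The length under listed peaks was compared with the neighbouring chromosome. H3K36me3 covered 0.555% of the cluster, 26.8% of the stretch of equal length before it, 22.0% of that after it and 6.61% of the genome, whereas peaks past the limits covered 0% of all 3 stretches. H3K4me1 covered 1.71% of the cluster against 10.6% and 10.2% in these stretches, and H3K9Ac 1.55% against 8.22% and 6.39%. H3K4me3 covered 0.970%, below the 3.68% and 3.02% beside it and near the 0.920% of the genome. CTCF went the other way, at 3.70% of the cluster, 2.28% and 3.33% of the stretches beside it, and 1.13% of the genome. That order held for listed peaks alone, since CTCF peaks past the limits covered 1.25% of the cluster and 1.88% and 2.22% of the stretches beside it. H3K27me3 covered 0.0905% of the cluster, 0.0405% of the stretch before it, 6.16% of that after it and 7.16% of the genome.

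**Figure D4:**
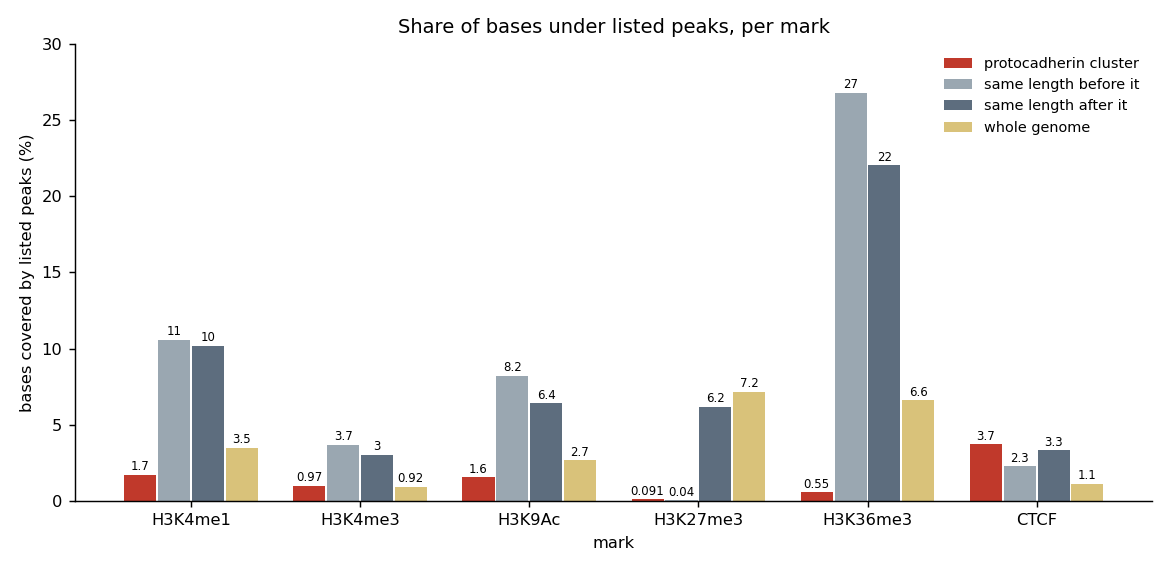
Share of bases (%) under listed peaks of each mark in the protocadherin cluster, in the stretches of equal length before and after it, and in the whole genome. For the 4 marks H3K4me1, H3K4me3, H3K9Ac and H3K36me3 the cluster bar is below both neighbours, and for CTCF it is above both, which reverses for peaks past the limits (1.25% against 1.88% and 2.22%), while H3K36me3 peaks past the limits cover 0% of all 3.

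The base composition of the windows differed among the members. The median G + C content was 42.8%, against 55.9% over all protein-coding genes, and the median number of CpG dinucleotides, the sites of DNA methylation, was 56 against 96. PCDHAC1 and PCDHAC2 had 126 and 108 CpG and the highest G + C contents, 56.6% and 57.2%, and were the only members above the median of all genes. PCDHGA10, the remaining member with histone peaks, had 54 CpG. The 28 members with CTCF alone had 22 to 79 CpG (median 54) and the 22 members with no peak 28 to 95 (median 55.5), so these ranges overlapped. PCDHGC5 had few CpG for its G + C content, with an observed to expected ratio of 0.222, and PCDHB9, with the highest beta CTCF fold, had the fewest CpG of all, 22. DNA methylation was not measured.

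**Figure D5:**
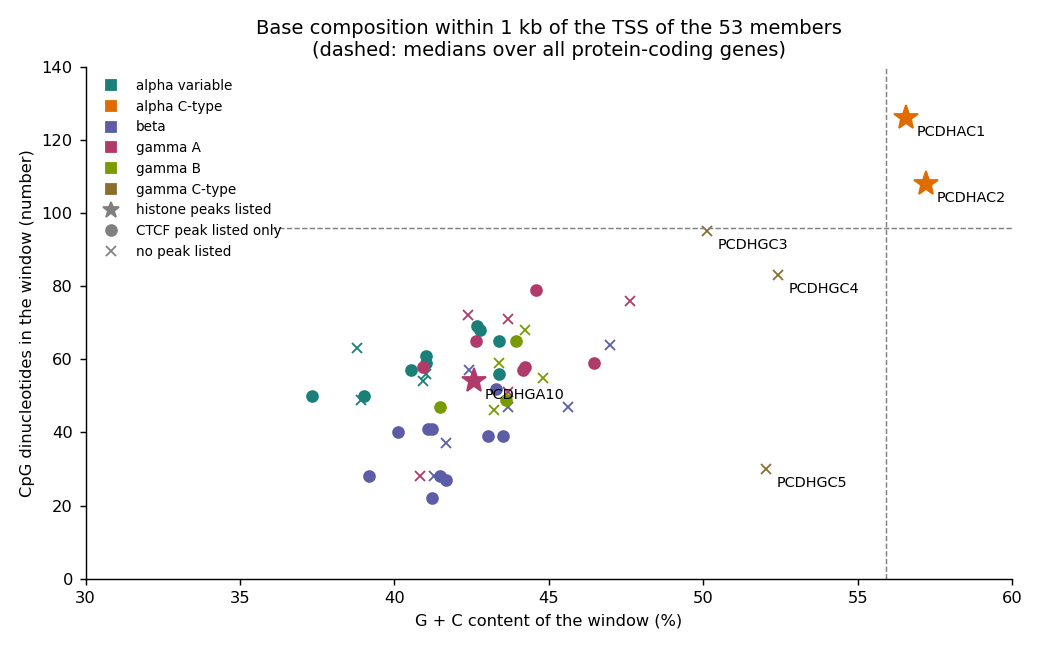
Number of CpG dinucleotides against G + C content (%) within 1 kb on each side of the TSS of each of the 53 members, by group (colour) and by listed peaks (symbol), with dashed medians of all protein-coding genes. PCDHAC1 and PCDHAC2 stand apart at the upper right with 126 and 108 CpG, and PCDHGA10 lies among the members without histone peaks.

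Since the members arose by duplication, reads from one may match another. The libraries had paired 75-base reads. Single reads were counted here, so some reads called not unique could be placed by their mate. Of all such reads that can start and end in a window, 100% were unique in hg19 for 31 of 53 members, and under 90% for 8. The lowest were PCDHB8 and PCDHB13, at 66.8% each, then PCDHA7 at 71.3%, PCDHA9 at 76.6%, PCDHGB4 and PCDHGB5 at 78.1%, and PCDHB9 and PCDHB10 at 86.9%. Of these 8, 6 had a listed CTCF peak, and by this count these 6 peaks are less certain in place than those at the other members. Among them, the peaks at PCDHB13, PCDHB9 and PCDHB10 were past the limits. PCDHAC1, PCDHAC2 and PCDHGA10 were at least 96.6% unique.

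The genes beside the row differed from its members. Of the 9 protein-coding genes with a TSS within 200 kb upstream, 7 had H3K4me3 past the limits, at folds of 18.8 to 25.6. Among these, NDUFA2 and IK share a peak, as do HARS1 and HARS2. All 5 downstream had it, from 10.6 at ARAP3 to 30.6 at HDAC3 and RELL2, which share the peak. The highest member, PCDHAC2 at 14.5, was thus below all 7 upstream neighbours and above FCHSD1 (10.9) and ARAP3. Upstream, CD14 and DND1 had no H3K4me3 peak. Of all protein-coding genes 59.1% had H3K4me3 past the limits. Inside the row, SLC25A2 and AC005609.1 had no peak of any mark, and ENSG00000279983 shared the CTCF peak of PCDHB14.

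Genes known to act on the cluster or with its proteins carried H3K4me3, which 59.1% of all protein-coding genes had past the limits. All 13 regulators in the list (CTCF, the cohesin subunits RAD21, SMC1A, SMC3, STAG1 and STAG2, the loader NIPBL, the release factor WAPL, SMCHD1, SETDB1, WIZ, DNMT3A and DNMT3B) had H3K4me3 past the limits, at folds of 8.61 to 42.3 (median 29.6). CTCF itself had 32.0. All 13 partners did too, at 7.92 to 33.6, among them the kinases PTK2 (33.6) and PTK2B (7.92), which bind the shared tail, and the WAVE complex genes CYFIP1 (29.0) and NCKAP1 (28.5). The lists were chosen with earlier results in view, and nothing particular to them is read from these counts.

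The non-clustered protocadherins, relatives with genes of their own elsewhere, mostly lacked active marks too. Of 12, only PCDH1 had H3K4me3 past the limits (20.1), with H3K9Ac at 13.7 and CTCF at 18.7. The share of all protein-coding genes with H3K4me3 past the limits was 59.1%. PCDH19 had H3K4me1 past the limits (4.43) and H3K4me3 listed at 3.43. PCDH7 had a listed H3K36me3 peak and PCDH8 a listed CTCF peak (4.36), and the other 8 had no listed peak.

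The cell type of the label was checked with marker genes. H3K4me3 was past the limits at 6 of 7 markers of colorectal epithelium (EPCAM, CDH1, KRT8, KRT18, KRT19 and CDX2), at 21.8 to 31.6, and was not listed at VIL1. Among 6 markers of other cell types it was past the limits at COL1A1 (9.21) and not listed at PTPRC, CD3E, COL1A2, RBFOX3 and SNAP25, the latter 2 being neuronal genes. A further chosen marker, PECAM1 of endothelium, was not among the annotated protein-coding genes and was left out. Of all protein-coding genes 59.1% had H3K4me3 past the limits.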

How the data were processed

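Peak lists of 6 marks from HCT116 cells, 1 library each, were analysed. Per the Methods, the authors mapped reads with BWA 0.7.12 to hg19 and used MACS2 in its broad mode (cutoff 0.1) on each library. The submitters' processing notes list MACS 1.4.2. The deposited fold enrichment of each peak is a linear ratio over background, and the deposited −log10 p-value and −log10 q-value belong to the whole peak. No authors' fold changes between samples were used.

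Genes were taken from GENCODE 44 on hg19, with the TSS of the canonical transcript. PCDHA6 and PCDHA7 have no such transcript and were placed by their gene's 5′ end. Overlaps required 1 bp. For CTCF, which the Methods do not name in their limits, those of the other marks were used. The matrix used 5434 core sites and a score reached by 5% of moved intervals, and its search was tested on simulated data. Overlap counts were checked with bedtools, and 0 of 6 marks differed. All members are accounted for, and those with peaks past the limits, the first and last of each group, the C-type members, neighbours within 200 kb and the listed pathway genes are named. The members and lists were chosen with earlier results of these data known. The tools were samtools 1.23.1, pyfaidx 0.9.0.4, scipy 1.17.1, pandas 2.3.3, numpy 2.4.6, matplotlib 3.10.9 and Python 3.11.15. Depth is unknown from the lists.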

Additional observations from a re-analysis of the deposited data

How the results depend on the processing

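No paired analysis was possible because there is 1 library for each antibody. Of 116 alternatives, 93 left the value within 1.5 times (for shares, within the Wilson interval). The member counts for H3K4me3, H3K27me3 and H3K36me3 did so in all 12 alternatives each. Under the limits set for the other marks, members with H3K4me1 fell to 0, and those with CTCF rose from 8 to 24. With the fold limit multiplied by 1.5, H3K9Ac was left at 1 member and CTCF at 4. CTCF stood at 30 members with all deposited peaks, at 21 with the fold limit alone, and at 1 when 50% of the window had to be covered. Members with a motif fell from 11 to 2 within 500 bp, since the alpha sites lie farther from the TSS. The cluster length covered, in bp, moved with all deposited peaks to 11280 for H3K9Ac (from 3988), 658 for H3K27me3 and 4033 for H3K36me3 (both from 0), and 26915 for CTCF (from 9090). Under the limits set for the other marks it was 4777 for H3K4me1 (from 8743), 11280 for H3K9Ac, 3777 for H3K36me3 and 22461 for CTCF. With the fold limit alone it was 9970 for H3K9Ac, 658 for H3K27me3 and 19668 for CTCF. With 100 kb added on each side it was 26229 for H3K4me1, 8453 for H3K4me3 (from 4837), 7856 for H3K9Ac and 13808 for CTCF, by the wider region. The relearnt matrix, added after the data were seen, found a motif in 36.4% of the cluster CTCF peaks past the limits. By the same matrix the share on other chromosomes, from whose peaks it was learnt, was 77.1%. It gave 12 members with a motif, 9 alpha variable and 3 beta, where the first matrix gave 10 and 1. Unknown depth limits every absence of a peak.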
